A study of Mus musculus with 3 samples.

Results

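The red blood cell percentage was examined in every spot of 3 mouse brain sections, 8549 of 8549 spots in all. By its column name it is the share of a spot's transcripts that fell on red blood cell genes, given by the authors for 2881 spots of the control section (CON), 2828 of the resilient section (RES) and 2840 of the susceptible section (SUS). The highest spots were chosen as those above the 95th percentile of their own section, which left 144 of CON, 142 of RES and 142 of SUS. No source used here gives the genes behind the percentage or its denominator, so the name red blood cell could not be checked against its genes and no gene is named with a value.

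The sections came from adult male C57BL/6J mice, 8 weeks old by the labels, 1 mouse and 1 left-hemisphere coronal section for each condition. RES and SUS mice were attacked daily by a CD-1 aggressor over 10 days of chronic social defeat stress (CSDS), while the CON mouse met a non-aggressive C57BL/6 mouse on the same days. The SUS mouse had a social interaction ratio under 1 and the RES mouse a ratio above 1. By the labels brains were taken 1.5 h after the last exposure, and the interaction test followed the last session by the methods, but the order of test and collection is not stated for these mice. The brains were rinsed of blood in cold buffer, frozen and sectioned at 10 μm. Each section lay on a Visium slide, whose capture spots form a hexagonal grid, and a spot is a small piece of tissue that can hold several cells. Unique molecular identifiers (UMIs) count each captured molecule once, and the totals were 37536349 (CON), 31196847 (RES) and 34979160 (SUS). With 1 section for each condition no test was possible, and condition, animal, section and library cannot be told apart. Medians carry 95% order-statistic intervals and shares exact Clopper-Pearson 95% intervals. They cover counting error within a section only and treat spots as independent, which adjoining spots are not.

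Mature red blood cells of mammals have no nucleus, yet they and the reticulocytes before them carry mRNA of the alpha and beta globin chains of haemoglobin, which binds oxygen. In brain tissue these cells lie inside vessels: the capillaries of the parenchyma, the larger vessels of the pia on the brain surface and of the arterial circle at its base, and the richly vascularised choroid plexus, which hangs into the ventricles. Low levels of globin mRNA have also been described in some neurons and glia. Since a spot pools all cells above it, more red blood cells in a spot and more of their RNA per cell cannot be told apart here.

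Across whole sections the percentage was lowest in CON, intermediate in RES and highest in SUS. The median spot held 0.0154% in CON (95% interval 0.0144 to 0.0160, n = 2881 spots), 0.0714% in RES (0.0693 to 0.0739, n = 2828) and 0.281% in SUS (0.270 to 0.291, n = 2840). The RES median was 4.65 times that of CON (4.32 to 5.13), the SUS median 18.3 times that of CON (16.8 to 20.2) and 3.94 times that of RES (3.65 to 4.20). Means, which the few highest spots pull up, were 0.0808%, 0.267% and 0.840%, so the ratios to CON fell to 3.30 and 10.4. How far these ratios carry to other mice of each condition cannot be told from 1 section each.

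The difference between sections ran through the whole range of spots and was not carried by the highest spots. The middle of the range, from the lower to the upper quartile, lay from 0.00606% to 0.0330% for CON, from 0.0443% to 0.138% for RES and from 0.171% to 0.635% for SUS, so the 3 ranges did not overlap. A value of 0 was listed for 517 CON spots (17.9%), 71 RES spots (2.51%) and no SUS spot, which allows a share of up to 0.130% in SUS. Every SUS spot and 2716 RES spots (96.0%) lay above the CON median. Above the 95th percentile of CON lay 384 RES spots (13.6%) and 1650 SUS spots (58.1%). Above 1% lay 49 spots of CON, 126 of RES and 508 of SUS.

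**Figure D1:**
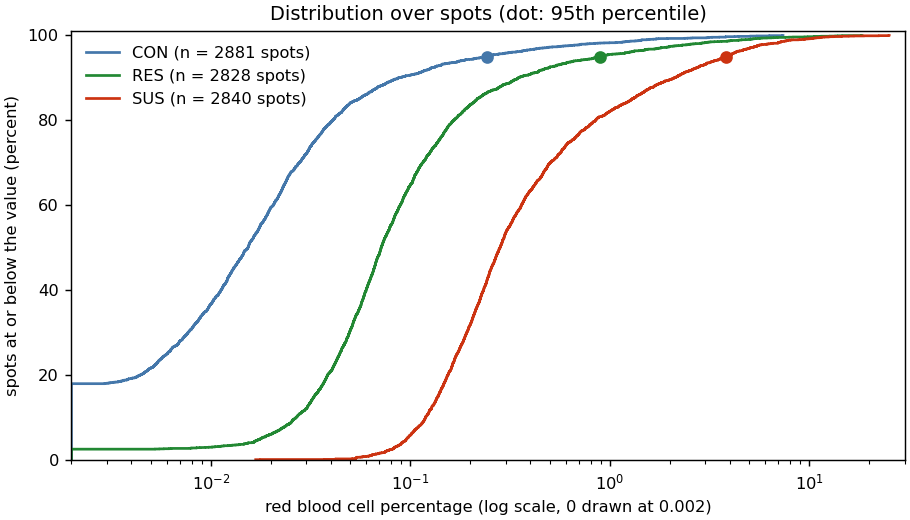
Cumulative share of spots (y axis, percent) at or below each red blood cell percentage (x axis, log scale, 0 drawn at 0.002) in CON (2881 spots), RES (2828) and SUS (2840), with a dot at the 95th percentile of each section. The curves lie apart over the whole range, with medians of 0.0154%, 0.0714% and 0.281% and 95th percentiles of 0.241%, 0.890% and 3.81%.

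Sequencing depth was unlike in the sections. The median spot of CON had 12912 UMIs, that of RES 10054.5 and that of SUS 10947.5, so 1 UMI of the deposited total, which may not be the total behind the percentage, makes 0.00774% of a CON spot, 0.00995% of a RES spot and 0.00913% of a SUS spot at that depth. By that total the CON median sits near the resolution of a spot. Of the CON spots under 2500 UMIs 72.2% were listed at 0, against 11.3% of those with 20000 UMIs or more. Among spots with 10000 to 15000 UMIs the medians were 0.0180% (CON), 0.0688% (RES) and 0.282% (SUS). The ratios to CON were 3.82 and 15.7, against 4.65 and 18.3 over all spots. The part of depth in the difference between sections was not tested. In each section the percentage was lower in the deepest spots than at 2500 to 5000 UMIs. Between these bands the median went from 0.0197% to 0.0106% (CON), from 0.0873% to 0.0453% (RES) and from 0.391% to 0.185% (SUS). Under 2500 UMIs it was 0%, 0.0758% and 0.324%, lower than in the next band.

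Within each section the percentage was very unequal among spots. The 95th percentile was 15.7 times the median in CON, 12.5 times in RES and 13.6 times in SUS. The top spots together held 71.2% of the summed percentages of the CON section, 61.4% of RES and 40.4% of SUS. The threshold cut a continuous range: the lowest top spot and the highest spot outside stood at 0.243% and 0.241% (CON), 0.893% and 0.886% (RES), and 3.82% and 3.81% (SUS).

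The highest single spots differed in their surroundings. In CON the highest spot (7.38%, 4604 UMIs) lay in the thalamus (TH), and its 6 neighbours ranged from 0.0114% to 0.0393%. In RES it lay in the fiber tracts (FB), stood at 18.3% with only 918 UMIs, and had neighbours between 0.0273% and 0.219%. Both were isolated, inside the tissue and far above every adjoining spot. In SUS the highest spot (25.1%, 6846 UMIs) lay in the hypothalamus (HY) at the ventral edge of the tissue, beside neighbours of 2.10% to 9.52%.

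**Figure D2:**
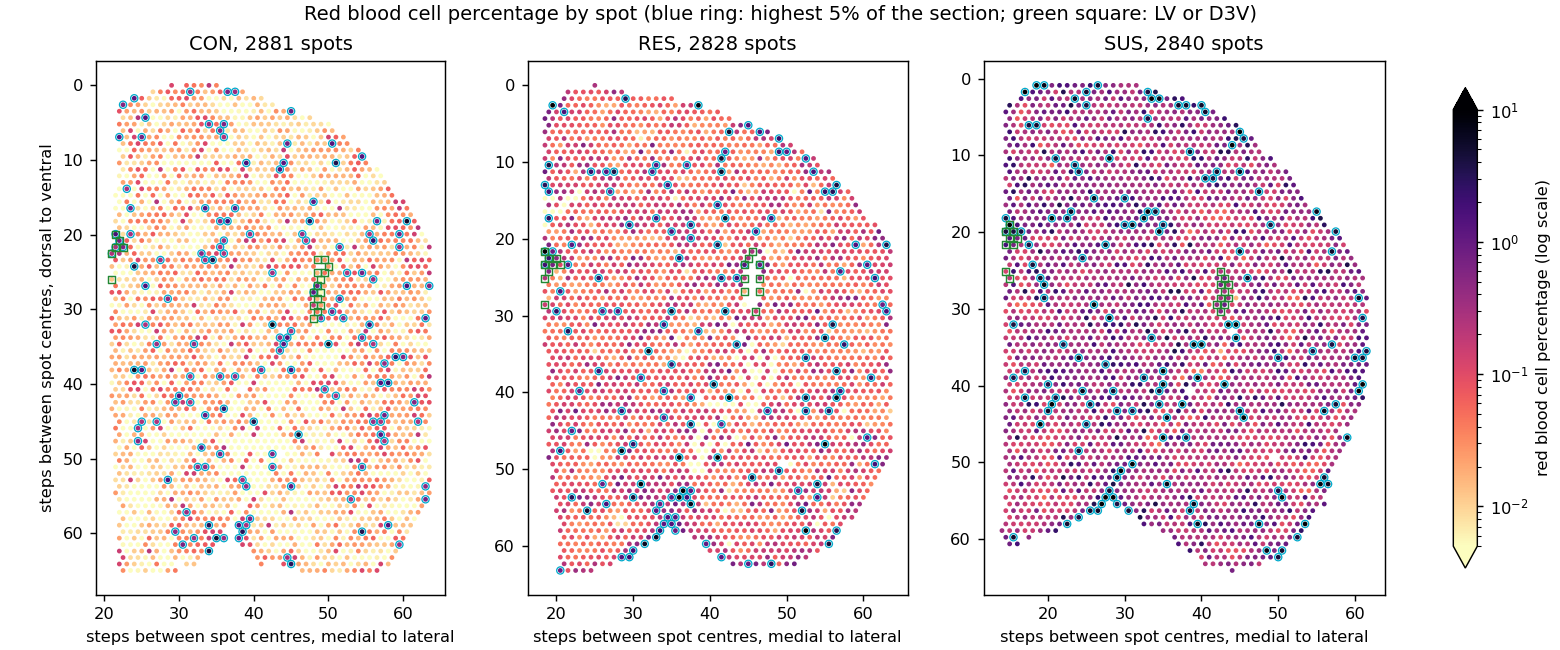
Red blood cell percentage of each spot (colour, log scale, values under 0.005 and above 10 drawn at the ends) at its place in the CON, RES and SUS sections, axes in steps between spot centres with the dorsal side at the top and the midline on the left. Blue rings mark the 144, 142 and 142 spots above the 95th percentile of their section and green squares the LV and D3V spots. Rings are scattered through all 3 sections, and denser at D3V, along the outer edge and at the ventral notch.

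Of the 17 areas that the authors assigned, D3V, the dorsal part of the third ventricle and a midline cavity with choroid plexus, had the highest median in all 3 sections. It was 0.432% in CON (n = 6 spots, 28.1 times the section median), 0.538% in RES (n = 9, 7.53 times) and 1.36% in SUS (n = 9, 4.82 times). With so few spots the intervals were wide, from 0.0120% to 1.71% (CON), from 0.154% to 2.28% (RES) and from 0.196% to 4.26% (SUS). The D3V median was 17.8 times that of the next area in CON, 1.96 times in RES and 2.79 times in SUS.

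The D3V spots of each section were ordered from dorsal to ventral. In CON the most dorsal spot held 1.71%, the spots below it 0.753%, 0.600%, 0.264% and 0.259%, and the most ventral spot, which stood apart from the others, 0.0120%. In RES the most dorsal spot held 14.7%, the 6 spots next below it ranged from 0.103% to 2.28%, and the 2 most ventral spots held 0.225% and 0.154%. In SUS the most dorsal spot held 16.7%, the next pair 4.26% each, the 4 spots beneath these between 0.576% and 1.77%, and the 2 most ventral spots 0.130% and 0.196%. So the most dorsal D3V spot was the highest of its area in each section, and the most ventral spots were at or below the level of the section in CON and SUS. It was also the D3V spot with the fewest UMIs, 6233 (CON), 6590 (RES) and 14613 (SUS).

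The lateral ventricle (LV), which also holds choroid plexus, was less uniform. Its median was 0.0243% in CON (n = 14 spots, interval 0.0157 to 0.174), 0.274% in RES (n = 9, 0.0570 to 0.980) and 0.360% in SUS (n = 10, 0.268 to 0.755), which put it at rank 2, 2 and 5 of 17. In CON the spots ranged from 0% to 1.15% and in RES from 0.0176% to 1.40%. In SUS they lay close together, from 0.238% to 0.945%, with none above the threshold of the section. The RES table lists LV spots on either side of a hole in the tissue, and all 9 adjoin it.

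Apart from LV and D3V, the 15 other areas differed little within a section. The highest of these medians was 2.15 times the lowest in CON, 1.99 times in RES and 2.38 times in SUS, less than the ratio of any section to the next. Over all 17 areas, intervals were apart in 28 of the 136 pairs in CON, 46 in RES and 48 in SUS. Between neighbours in the order of the 17 they overlapped in all 16 pairs of each section, so the order of single neighbours cannot be read from these spots.

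In the hippocampus (HIP), the structure of memory and of stress feedback, the CON median was 0.0180% (0.0145 to 0.0219), the RES median 0.0879% (0.0727 to 0.102) and the SUS median 0.422% (0.374 to 0.469). In the Isocortex it was 0.0150% (0.0138 to 0.0167), 0.0625% (0.0592 to 0.0654) and 0.281% (0.263 to 0.302). HIP was above the Isocortex in each section, with intervals that overlapped in CON and lay apart in RES and SUS. Within HIP the dentate gyrus (DG), which takes in the cortical input, went from rank 13 in CON (0.0128%) to rank 7 in RES (0.0778%) and rank 2 in SUS (0.486%). CA1, the output field, held ranks 9, 4 and 3 (0.0174%, 0.100% and 0.431%). CA3, the field between them, held ranks 3, 8 and 8 (0.0236%, 0.0743% and 0.302%). DG and CA3 were therefore in opposite order in CON and SUS. Their intervals were apart in both, at 0.00904 to 0.0180 against 0.0190 to 0.0313 in CON and 0.408 to 0.678 against 0.266 to 0.406 in SUS. Their depth was in opposite order too, with medians of 14869 (DG) against 12183 UMIs (CA3) in CON and 10455 against 12902.5 in SUS. The part of depth in this order was not tested.

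The ranks of cortical areas by median also differed between sections. The primary somatosensory area (SSp) was the lowest of all areas in CON (0.0110%, rank 17), at rank 14 in RES (0.0570%) and at rank 7 in SUS (0.319%). The auditory area (AUD) went the other way, from rank 5 in CON (0.0217%) to 13 in RES (0.0669%) and 14 in SUS (0.234%). The temporal areas (TEP) held ranks 4, 16 and 12 (0.0228%, 0.0533% and 0.281%). The parietal area (PTL) was among the lowest 3 in RES (0.0565%, rank 15). The entorhinal area (ENTl), with 16, 31 and 30 spots, held ranks 6, 17 and 4 (0.0198%, 0.0520% and 0.379%). Its CON interval, 0.00968 to 0.0478, covered the CON medians of all other areas but D3V.

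In the ventral part of the sections the olfactory area (OLF) was at rank 16 in CON (0.0121%), the third highest area in RES (0.103%, rank 3) and at rank 13 in SUS (0.261%). HY was among the lowest in CON (0.0121%, rank 15) and SUS (0.223%, rank 16) but at rank 6 in RES (0.0807%). The amygdala (AMY) held ranks 8, 12 and 15 (0.0185%, 0.0701% and 0.229%). FB had the lowest median in SUS (0.204%, rank 17) and ranks 12 and 9 in CON and RES (0.0134% and 0.0722%). It was also the area with the fewest UMIs, a median of 3701 (CON), 3522.5 (RES) and 5599 (SUS), and 44.6% of its CON spots were listed at 0. The rank differed by 5 or more between sections in 11 of the 17 areas, whereas D3V and TH kept the same rank. How many of these shifts exceed counting error was not tested.

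**Figure D3:**
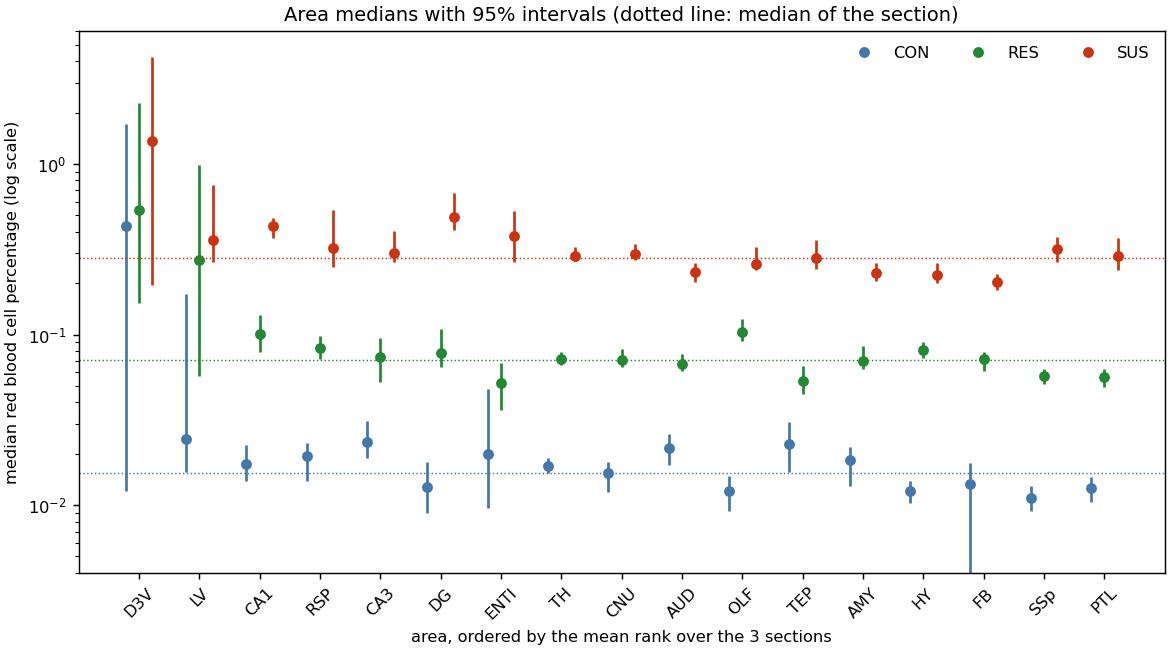
Median red blood cell percentage (y axis, log scale) of the 17 areas in CON, RES and SUS, with 95% intervals as vertical lines and the section medians (0.0154%, 0.0714% and 0.281%) dotted; areas are ordered by mean rank, and the interval of FB in CON reaches 0. D3V is highest in each section, LV in RES lies 3.83 times above its line, and the 15 other areas lie within 0.72 to 1.73 times the line of their own section.

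The order of the areas was weakly shared between the sections. Spearman's rho over the 17 areas was 0.14 between CON and RES, 0.34 between CON and SUS and 0.31 between RES and SUS. Without LV and D3V it was -0.26, 0.12 and 0.07 over 15 areas. It depended on the measure. From the means it was 0.30, -0.12 and 0.16, and among spots of 10000 to 15000 UMIs -0.15, -0.00294 and 0.12. Over the authors' 11 brain regions it was 0.75 between CON and SUS. From percent times UMIs it was 0.81 between RES and SUS, where rho of the area median UMIs was 0.92. These are descriptions over areas that differ in depth and in number of spots, and no p is given.

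Every area shared the order of the sections. CON was lowest, RES intermediate and SUS highest in 17 of 17 areas. Without edge spots this held in 15 of 16 areas, as D3V, with 1, 3 and 3 spots left, stood at 0.600%, 0.437% and 0.679%, and LV in RES had no spot left. The interval of the RES to CON ratio lay above 1 in 14 areas, that of SUS to CON in 16 and that of SUS to RES in 15. In 16 areas the lower quartile of SUS lay above the upper quartile of CON, with D3V as the exception. The lowest ratios were those of D3V, at 1.24 in RES (0.0900 to 189) and 3.14 in SUS (0.115 to 354), whose intervals allow almost any value. The highest ratio of SUS to CON was that of DG at 38.1 (22.7 to 75.0), and AUD had the lowest of the areas with more than 10 spots at 10.8 (7.87 to 15.4). The intervals of DG and AUD, a pair picked as extremes, did not overlap. The highest ratio of RES to CON was that of LV at 11.3 (0.327 to 62.6), followed by OLF at 8.53 (6.22 to 13.4), and TEP was low at 2.34 (1.46 to 4.16). After division by the median of the own section, 7 areas in RES and 8 in SUS were above CON, from 0.27 (D3V) to 2.42 times (LV) in RES and from 0.17 (D3V) to 2.08 times (DG) in SUS.

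The top spots were spread over nearly all areas. D3V had the largest share of top spots in each section, 5 of 6 spots in CON, 3 of 9 in RES and 3 of 9 in SUS, against about 5% of all spots by the choice of threshold. In CON this was 83.3% (35.9 to 99.6) and in RES and SUS 33.3% each (7.49 to 70.1). LV had 2 top spots of 14 in CON, 2 of 9 in RES and 0 of 10 in SUS, which allows up to 30.8%. Among larger areas DG stood high in SUS with 8 of 86 spots (9.30%, 4.10 to 17.5) and HY in RES with 22 of 292 (7.53%, 4.78 to 11.2). AMY stood low in SUS, with 1 of 199 spots (0.503%, 0.0127 to 2.77). Only D3V, in the 3 sections, had an interval above the share of its section.

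Top spots adjoined each other more often than the share of top spots would give. On the hexagonal grid a spot has up to 6 adjacent places. Of the listed places adjacent to a top spot, 9.65% held a top spot in CON (78 of 808, interval 7.71 to 11.9), 8.03% in RES (62 of 772, 6.21 to 10.2) and 11.5% in SUS (88 of 766, 9.32 to 14.0). These shares were 1.93, 1.60 and 2.30 times the 5% of all spots. Each pair of adjoining top spots is counted from both of its ends, so the intervals are too narrow. A top spot had at least 1 top neighbour in 41.0% of cases in CON, 27.5% in RES and 47.9% in SUS, against 22.8%, 23.8% and 21.2% of the other spots. In RES the intervals of these 2 shares overlapped (20.3 to 35.6 against 22.2 to 25.4). Without the spots at the edge of the listed area the shares of top neighbours were 7.37%, 5.68% and 7.28%, or 1.47, 1.13 and 1.46 times the share of all spots.

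Most top spots nevertheless stood alone. In CON 85 of 144 had no top neighbour, in RES 103 of 142 and in SUS 74 of 142. Connected groups of 3 or more numbered 7 (CON), 5 (RES) and 8 (SUS) and held 27, 23 and 30 spots. The other spots adjoining a top spot were above the section median, at 1.47 times in CON, 1.27 times in RES and 1.27 times in SUS. At 2 steps the level was 0.95, 0.99 and 0.99 times. At 3 steps it had fallen to 0.75, 0.86 and 0.87 times. Top spots are left out at each of these steps, so the fall from the top spots themselves was fixed by the threshold. Among the other spots the level was above the section median only at the adjoining places.

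A group of top spots lay at D3V in each section, and another at the ventral tissue edge. The group at D3V held 5 D3V spots in CON (0.259% to 1.71%). In RES it held 3 D3V spots and 1 CA1 spot (0.924% to 14.7%). In SUS it held 3 D3V spots, 1 of CA1 and 1 of DG (4.22% to 16.7%). At the ventral notch of the tissue, where the outline turns inward beside the hypothalamus, the largest group of RES held 4 HY and 3 cerebral nuclei (CNU) spots, 5 of them at the tissue edge, with values from 0.981% to 6.11%. The largest group of SUS held 5 HY and 2 CNU spots, 6 of them at the tissue edge, from 4.10% to 25.1%. In CON a group of 5 CNU spots, 3 of them at the ventral tissue edge and with CNU and FB but no HY spots around it, ranged from 0.273% to 3.06%, and was as large as the D3V group and a group of 4 TH and 1 FB spots. A further RES group of 3 FB, 2 CNU and 1 HY spots lay just dorsal of the notch and reached 10.7%.

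The edge of the tissue held a larger part of the top spots than of all spots. Spots that adjoin a place without tissue outside the section made up 3.96% of all CON spots, 4.14% of RES and 5.39% of SUS. Among top spots they made up 10.4% (15 of 144, 5.95 to 16.6), 17.6% (25 of 142, 11.7 to 24.9) and 24.6% (35 of 142, 17.8 to 32.6). The intervals of the shares among top spots and among all spots were apart in each section. Spots above 1% made up 6.14% of the tissue edge in CON (7 spots), 19.7% in RES (23) and 46.4% in SUS (71). Among all spots they made up 1.70%, 4.46% and 17.9%, so the excess at the edge was 3.61, 4.41 and 2.59 times.

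**Figure D4:**
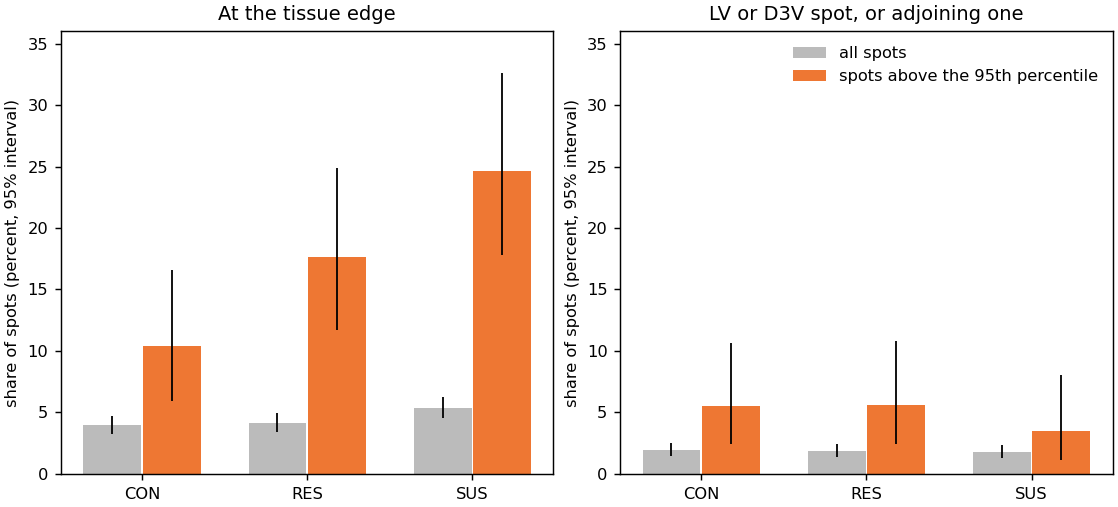
Share (y axis, percent, with exact 95% intervals) of all spots (grey) and of the spots above the 95th percentile (orange) that lie at the tissue edge (left) or are LV or D3V spots or adjoin one (right), in CON, RES and SUS. At the tissue edge the orange bars (10.4%, 17.6% and 24.6%) stand above the grey bars (3.96%, 4.14% and 5.39%) with intervals apart; near the ventricles the bars are 5.56%, 5.63% and 3.52% against 1.91%, 1.87% and 1.76%.

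The level at the tissue edge was raised over a narrow band. At the edge the median was 0.0295% in CON (0.0206 to 0.0365, n = 114 spots), 0.206% in RES (0.163 to 0.278, n = 117) and 0.925% in SUS (0.678 to 1.25, n = 153). This was 1.92, 2.88 and 3.28 times the section median. A step inward it was 1.07, 1.45 and 1.32 times, and 2 steps inward 0.72, 0.87 and 0.79 times, below the section. Edge spots were shallower than inner spots, with median totals of 10450 against 13041 UMIs in CON, 6088 against 10389 in RES and 5252 against 11332 in SUS. Among spots of 5000 to 10000 UMIs, a comparison chosen after the data were seen, the edge was 1.66 times the inner spots in CON, 2.55 times in RES and 3.58 times in SUS. In CON the intervals at that depth overlapped (0.0206 to 0.0419 against 0.0177 to 0.0219), in RES and SUS they did not. At 2500 to 5000 UMIs those of RES overlapped too (0.0785 to 0.304 against 0.0748 to 0.0965). From percent times UMIs, also chosen then, the ratio of the edge to inner spots was 1.69 in CON, 1.65 in RES and 1.74 in SUS, against 2.01, 2.99 and 3.43 from the percentage.

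The same held within areas. With at least 6 spots at the tissue edge, 7 areas in CON, 7 in RES and 8 in SUS could be compared with their own inner spots. The edge was higher in 7 of 7, 7 of 7 and 8 of 8 areas, with the interval of the ratio above 1 in 3, 5 and 8. The ratios ranged from 1.31 to 4.75 in CON, from 1.26 to 7.29 in RES and from 2.17 to 5.97 in SUS. The retrosplenial area (RSP), which lies under the dorsal midline, had 0.0616% at the edge and 0.0183% inside (CON), 0.202% and 0.0718% (RES), and 1.43% and 0.250% (SUS). CNU, which includes the striatum, had 0.0649% and 0.0137% (CON), 0.509% and 0.0698% (RES), and 1.50% and 0.295% (SUS). In HY the edge stood at 0.0197%, 0.507% and 0.972% against 0.0120%, 0.0756% and 0.213% inside.

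Along the medial border the level was near that of the section in CON and SUS and above it in RES. There the table of spots ends but the tissue goes on, with 906, 1030 and 946 covered places beyond it that are not analysed here. The spots along it had medians of 0.95 times the section in CON and 1.03 times in SUS. In RES the median was 0.123% (0.0963 to 0.160), 1.72 times the section, and 1.58 times without the spots in or beside D3V. Leaving out its D3V spots, the border held 1 top spot of 65 in CON, 4 of 62 in RES and 1 of 59 in SUS, a CA1 spot of the group at D3V. Tissue edge and medial border together held 13.9% of the top spots of CON (20 of 144), 22.5% of RES (32 of 142) and 26.8% of SUS (38 of 142), against 6.39%, 6.54% and 7.68% of all spots. Over all spots with fewer than 6 listed neighbours, which add those at the slide limit, at holes and at unlisted places inside, the share among top spots was 18.8%, 26.8% and 28.9%, against 9.09%, 8.98% and 8.42% of all spots. From percent times UMIs it was 17.4%, 23.9% and 15.5%.

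Near the ventricles the numbers were small. Spots of LV or D3V and those adjoining them made up 1.91% of all spots in CON (n = 55), 1.87% in RES (n = 53) and 1.76% in SUS (n = 50). Of the top spots they held 8 in CON, or 5.56% (2.43 to 10.7). In RES they held 8, or 5.63% (2.46 to 10.8), and in SUS 5, or 3.52% (1.15 to 8.03). The intervals overlapped those of all spots (1.44 to 2.48 in CON, 1.31 to 2.31 in SUS) except in RES, where they were barely apart (upper bound of all spots 2.44). D3V and its neighbours accounted for 5 of these top spots in each section, and LV and its neighbours for 3, 3 and 0.

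From D3V outward the medians were lower at each of the next 2 steps, though the intervals of D3V and of the adjoining spots overlapped in each section. From D3V itself to the adjoining spots and to the spots at 2 steps the median went from 28.1 to 1.96 and 0.61 times the section median in CON. In RES it went from 7.53 to 2.20 and 1.09 times, and in SUS from 4.82 to 3.06 and 0.94 times, with 1.16, 1.52 and 1.71 times at 3, 4 and 5 steps. Around LV the values were 3.83, 2.05 and 0.90 times in RES, where the intervals of LV and the adjoining spots overlapped, and 1.58, 1.63 and 1.07 times in CON, with 2.04 times at 3 steps and 1.41 times at 4. In SUS they were 1.28, 0.51 and 0.68 times. There the spots adjoining LV, at 0.143% (0.117 to 0.188, n = 18), were lower than LV (0.268 to 0.755) and than the section.

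**Figure D5:**
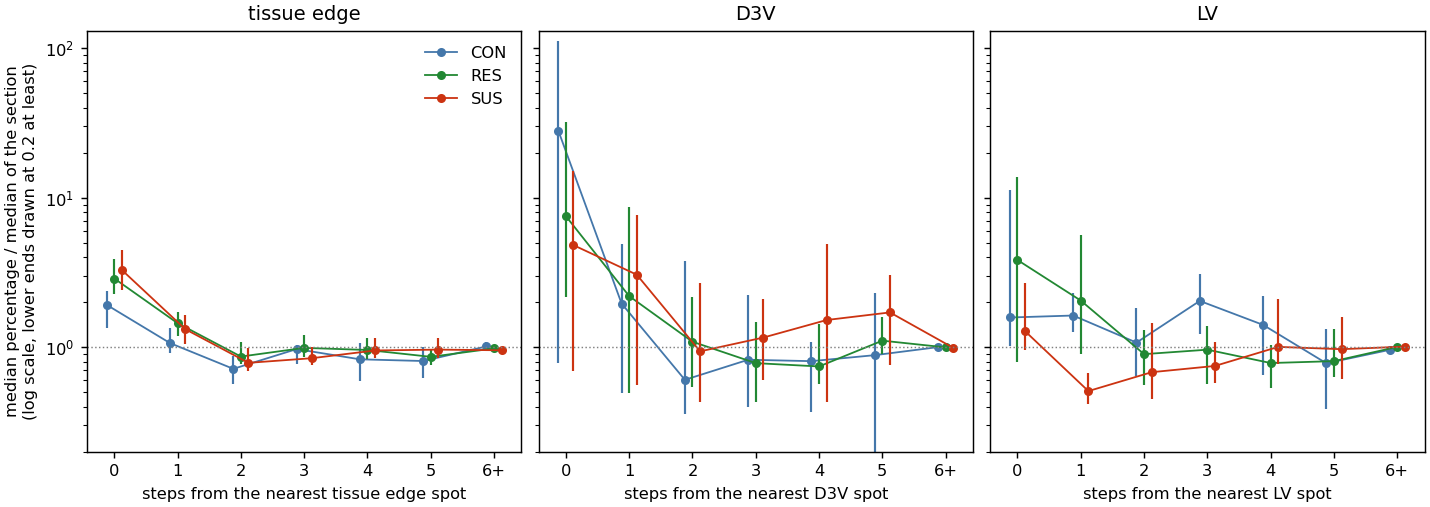
Median red blood cell percentage divided by the median of the section (y axis, log scale, intervals as vertical lines with lower ends drawn at 0.2 at least) against steps from the nearest tissue edge, D3V or LV spot (x axis, 0 to 5, and 6 or more). At the tissue edge the medians fall from 1.92, 2.88 and 3.28 times to 0.72, 0.87 and 0.79 times at 2 steps in CON, RES and SUS, and at D3V from 28.1, 7.53 and 4.82 times to 0.61, 1.09 and 0.94 times.

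Other readouts of the same spots were weakly related to the percentage over a whole section and more closely within some areas. Over all spots of a section, Spearman's rho with the UMI total was -0.05 in CON (n = 2881), -0.17 in RES (n = 2828) and -0.19 in SUS (n = 2840). With the mitochondrial percentage it was 0.14, 0.22 and 0.18, and with the ribosomal protein percentage -0.10, 0.04 and -0.04. Within the 14 areas of 50 or more spots, rho with UMIs was negative in 11 areas of CON, 13 of RES and 14 of SUS, with medians of -0.14, -0.22 and -0.33 and lowest values of -0.50, -0.65 and -0.52. With the mitochondrial percentage the medians within areas were 0.14, 0.27 and 0.25 and the highest values 0.58, 0.59 and 0.54. With the mean of the adjacent spots rho over a whole section was 0.32, 0.37 and 0.28, and it was positive within all 14 areas of 50 or more spots in each section. Top spots had a lower median UMI total than the rest, 11726.5 against 13039 in CON, 8512 against 10132.5 in RES and 7528.5 against 11138 in SUS. The intervals overlapped in CON and RES and were apart in SUS. The median mitochondrial percentage of top spots was 10.7% against 10.4% in CON, 10.6% against 9.60% in RES and 9.70% against 7.97% in SUS. There the intervals overlapped in CON only. The part of depth and mitochondrial transcripts in the top spots was not tested.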

How the data were processed

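The deposited table holds, for each spot kept by the authors, a count of UMIs and of genes and percent values whose names denote red blood cell, mitochondrial and ribosomal protein genes. Per the paper, the authors used ST Pipeline, mm10 and Seurat, and left out genes under 10 reads or 2 spots and spots under 200 UMIs. The submitters' notes name bcl2fastq, cutadapt and Space Ranger 1.0.0. The percent multiplied by the UMI total was whole within 0.001 in 0.188% of spots above 0. So percent times UMIs is not a count of molecules, and why the products are not whole was not tested. Percent times UMIs serves only as the percentage weighted by the deposited total of the spot. AMY and HIP stand for the deposited labels CTXsp and Hip. Image scale factors were not used.

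Barcode and section tied each spot to its place on the slide. Adjacent spots are the 6 nearest places. Edge spots have fewer than 6 listed neighbours, and tissue edge spots adjoin an outer place without tissue. The interval of a ratio divides opposite bounds, and medians of fewer than 6 spots got none. The areas, thresholds and comparisons were chosen with earlier results of these data known. Areas named with values are the 3 highest and 3 lowest of each section, LV and D3V, those whose rank differed by 5 or more and those with extreme ratios. The others named (RSP, CNU, TH, HIP and the Isocortex) were chosen after their values were seen. Alternatives are the mean, depth limits, other percentiles, wider neighbourhoods, own-area thresholds, percent times UMIs and leaving out sections. No test between conditions was made. The code for neighbour counts and intervals was checked on simulated data. Software was pandas 2.3.3, numpy 2.4.6, matplotlib 3.10.9 and scipy 1.17.1 under Python 3.11.15.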

Additional observations from a re-analysis of the deposited data

How the results depend on the processing

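Of 150 alternative values for 28 results, 98 stayed within the interval, 1 SD (rank correlations) or 1.5 times (counts) of the reported value. D3V had the highest median in each section under every alternative but 1, since no CON D3V spot has 10000 to 15000 UMIs. Without edge spots this rested on 1 (CON), 3 (RES) and 3 (SUS) D3V spots. Leaving out CON, RES or SUS in turn kept its mean rank at 1, which its rank of 1 in each section fixed in advance. These mean ranks are among the 98. LV in RES has no spot away from the edge.

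The medians of CON, RES and SUS became 0.0808%, 0.267% and 0.840% as means. With 10000 to 15000 UMIs CON gave 0.0180% and RES 0.0688%. Without edge spots RES gave 0.0688% and SUS 0.269%, and with equal weight of areas CON gave 0.0174% and SUS 0.297%. Ratios to CON were 3.30 and 10.4 from means and 3.82 and 15.7 with 10000 to 15000 UMIs, and after division by the section median 7 (RES) and 8 (SUS) areas were above 1, not 17.

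The order of areas also moved. The rank correlation of CON and RES was 0.30 from means, -0.15 with 10000 to 15000 UMIs, -0.0353 without edge spots and 0.40 from percent times UMIs. That of CON and SUS was -0.12 from means, -0.00294 with 10000 to 15000 UMIs and 0.75 over 11 regions. That of RES and SUS was 0.16 from means, 0.12 with 10000 to 15000 UMIs and 0.81 from percent times UMIs, beside a rank correlation of the area median UMIs of 0.92. The cause was not tested.

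D3V in CON had 16.7% top spots at the 99th percentile and 0% above the 95th percentile of the 3 sections together. Pairs of an area and a section with an interval above the share of that section numbered 1 at the 99th percentile and 5 from percent times UMIs, against 3 (D3V in each section). The share of top neighbours was 18.3%, 17.3% and 14.7% at the 90th percentile and 1.22%, 1.26% and 6.54% at the 99th, or 1.83, 1.73 and 1.47 times and 1.21, 1.23 and 6.40 times the share of all spots. It was 7.37%, 5.68% and 7.28% without edge spots, and 7.69% (CON) and 8.39% (SUS) over 18 places. In SUS it was 8.11% with thresholds of the own area and 9.18% from percent times UMIs. The share of edge spots among top spots was 34.0%, 41.5% and 42.3% within 2 steps (of all spots 29.4%, 28.5% and 25.9%). By tissue-covered neighbours it was 12.5% in CON, 2.22 times the 5.62% of all spots, against 2.06 times in the main setting. In RES it was 17.2% at the 99th percentile, 1.92 times the share of all spots against 2.98 times. In SUS it was 20.1% at the 90th percentile, 41.4% at the 99th and 15.5% from percent times UMIs, still 1.84 times the share of all spots. By percent times UMIs, added after the data were seen, the tissue edge was 1.65 (RES) and 1.74 (SUS) times inner spots, against 2.99 and 3.43.

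No paired analysis was possible because each condition has 1 section. Depth limits CON most, where 1 UMI is near the size of the median value. Intervals take spots as independent, and LV and D3V have 6 to 14 spots a section.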

Other observations

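The same barcode marks the same place on each slide, but not the same place in the brain. The first columns with listed spots were 42 (CON), 37 (RES) and 28 (SUS). CON and RES share 2640 barcodes, CON and SUS 2356, and RES and SUS 2500. Over them Spearman's rho of the red blood cell percentage was 0.06, -0.02 and 0.03. Of the shared places 5, 4 and 3 held a top spot in both sections. They were 5 of the 125 top CON places and of the 128 top RES places that these sections share (3.91% of the latter). For CON and SUS they were 3.45% of 116 and 3.48% of 115, and for RES and SUS 2.61% of 115 and 2.40% of 125. All these shares lie below the about 5% of all spots of a section that the threshold leaves.

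A common threshold at the 95th percentile of the 3 sections together (1.77%) left 428 spots, of which CON had 21, RES 84 and SUS 323.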
